A study of Mus musculus with 2 samples.

Results

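The collagen genes encode the chains of the collagens, the fibre-, net- and filament-forming proteins of the extracellular matrix. They were taken by name from the merged expression table, as every gene called Col, a number, a and a number, which gave 43 of 26840 genes. All 43 were counted in both libraries, with 7113 collagen unique molecular identifiers (UMIs, tags that mark single captured RNA molecules) in the cells kept. Of these genes, 26 had at least 50 UMIs over both libraries and are described by name. The other 17 had 3 to 41 UMIs and are mostly given by counts.

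Collagen chains assemble in groups whose central stretches wind around each other into a helix, after hydroxylation of their prolines and lysines in the endoplasmic reticulum. Fibrillar collagens (types I, III, V and XI among them) form banded fibres, type IV forms the net inside basement membranes, type VI forms beaded filaments, and types XIII, XVII, XXIII and XXV span the cell membrane. In the brain, collagen lies mainly in the meninges and around blood vessels, where fibroblast-like vascular and leptomeningeal cells (VLMCs), mural cells and endothelial cells lay it down, and little of it lies between neurons.

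The data are from Drop-seq, a droplet method that counts the 3' ends of transcripts per cell. The Irx5KO library came from 6 pooled Irx5-/- mice, which lack the homeobox transcription factor Irx5, and the WT library came from 7 pooled wild-type mice. Mice of both groups were of the CD-1 strain and 7 to 8 weeks old, and the tissue was the arcuate nucleus with the median eminence, dissected from the base of the hypothalamus, dissociated and sorted for live cells. With 1 library of pooled animals per genotype, animals cannot be told apart, no difference between genotypes has a replicate check and no test was made.

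After filtering, 1948 Irx5KO cells and 1834 WT cells remained, with medians of 1691.5 and 1624 UMIs per cell in Irx5KO and WT. The libraries shared 1 barcode sequence. Irx5 itself had 0 UMIs in Irx5KO cells and 13 UMIs, in 11 cells, in WT cells. Levels are in counts-per-million (CPM), the UMIs of a gene scaled by all UMIs of a library's cells of that class, and every interval is an exact 95% interval that covers counting error only. A UMI marks 1 captured 3' end and is not divided by gene length, so ratios between genes compare UMIs and not transcripts. Where a class was summed, more transcripts in each cell and more cells holding them cannot be told apart from the sum alone.

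Cell classes were rebuilt by clustering without the collagen genes and named from marker lists. VLMC-like cells, 142 in Irx5KO and 130 in WT, held 45424 and 43638 CPM of the VLMC list (Dcn, Lum, Igf2 and others, with Slc47a1 at 0 in both). These near-equal sums hid unlike markers. Dcn had 4379 UMIs in Irx5KO and 5757 in WT and Lum 488 and 634, while Mgp had 3173 and 1035 and Igf2 148 and 21. Mural-like cells (39 in Irx5KO and 56 in WT) held 32606 and 26921 CPM of the mural list, and all 10 of its markers were counted in each library. Endothelial-like cells were few, 14 in Irx5KO and 20 in WT. Tanycyte-like cells, radial glia at the ventricular floor, numbered 443 in Irx5KO and 321 in WT. They held 2996 and 2166 CPM of the tanycyte list, with all 10 markers counted in each library, and 2285 and 2482 CPM of the neuron list. The oligodendrocyte lineage was split into oligodendrocyte precursor-like (OPC-like, 77 in Irx5KO and 187 in WT), committed precursor-like (COP-like, 15 and 20) and oligodendrocyte-like cells (116 and 192).

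Several collagen genes lie side by side. Type IV chains come in pairs that share a promoter region: Col4a1 (chr8:11198423-11312826, minus strand) and Col4a2 (chr8:11312805-11449287, plus strand) start 21 bases apart and run in opposite directions, Col4a4 and Col4a3 start 72 bases apart on chromosome 1, and Col4a6 and Col4a5 start 1309 bases apart on chromosome X (GRCm38, GENCODE M21). Col3a1 (chr1:45311538-45349706) and Col5a2 (chr1:45374321-45503282) lie tail to tail with 24615 bases between them. The promoters of 4 genes are shown because the differences between the libraries in VLMC-like cells turn on these genes: the type IV pair, and Col1a2 and Col3a1, fibrillar genes with unlike ratios. They are RefSeq sequences of GRCm38.p6, from 250 bases before to 50 bases after the start site and printed on the gene's own strand. Capitals mark 3 motifs, searched on both strands: the TATA box, spelled TATAAA, the CCAAT box, spelled as in its name, and the GC box, spelled GGGCGG. None of them overlapped in the promoters shown.
Col4a1 (chr8:11312777-11313076, minus strand): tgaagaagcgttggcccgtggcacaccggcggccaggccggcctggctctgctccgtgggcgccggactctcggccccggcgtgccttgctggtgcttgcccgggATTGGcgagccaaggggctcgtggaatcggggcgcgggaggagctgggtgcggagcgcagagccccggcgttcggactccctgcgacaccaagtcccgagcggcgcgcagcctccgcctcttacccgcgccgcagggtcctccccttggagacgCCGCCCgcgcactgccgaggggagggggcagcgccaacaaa
Col4a2 (chr8:11312555-11312854, plus strand): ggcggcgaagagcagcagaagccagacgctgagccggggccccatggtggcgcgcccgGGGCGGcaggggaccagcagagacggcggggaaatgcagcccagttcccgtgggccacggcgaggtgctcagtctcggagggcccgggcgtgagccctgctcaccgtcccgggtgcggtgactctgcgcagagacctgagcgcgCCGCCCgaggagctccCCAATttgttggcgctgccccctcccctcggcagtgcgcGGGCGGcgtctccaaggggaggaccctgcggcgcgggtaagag
Col1a2 (chr6:4505368-4505667, plus strand): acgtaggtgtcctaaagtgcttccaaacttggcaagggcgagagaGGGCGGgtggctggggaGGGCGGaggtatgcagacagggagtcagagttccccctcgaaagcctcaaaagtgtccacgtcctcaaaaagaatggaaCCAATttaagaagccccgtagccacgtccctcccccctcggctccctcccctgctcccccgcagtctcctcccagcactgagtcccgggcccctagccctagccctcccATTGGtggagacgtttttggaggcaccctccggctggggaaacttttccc
Col3a1 (chr1:45311288-45311587, plus strand): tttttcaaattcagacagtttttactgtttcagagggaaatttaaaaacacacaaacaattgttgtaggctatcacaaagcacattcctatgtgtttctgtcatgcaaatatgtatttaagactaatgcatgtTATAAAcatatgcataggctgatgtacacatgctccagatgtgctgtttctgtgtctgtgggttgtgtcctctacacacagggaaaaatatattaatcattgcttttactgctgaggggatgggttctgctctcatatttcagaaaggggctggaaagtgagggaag
The type IV windows share 78 bases, and the GC box that stands 9 bases after the Col4a1 start site and the one 7 bases after the Col4a2 start site are the same 6 bases (chr8:11312812-11312817). Their GC content was 74% for Col4a1 and 73.7% for Col4a2, against 37.7% for Col3a1, which held the TATA letters and no CCAAT or GC box. RefSeq promoters were found for 34 of the 43 genes. A GC box stood in 22 of the 34 (64.7%), against 35.9% of all 27025 promoters. The CCAAT letters stood in 12 (35.3%), against 37.9%, and the TATA letters in 4 (11.8%), against 14.2%.

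VLMC-like cells held the most collagen RNA. Their summed level was 7463.5 CPM (7075 to 7868) in Irx5KO and 6375 CPM (6007 to 6761) in WT. Tanycyte-like cells followed with 1886 CPM (1795 to 1981) in Irx5KO and 1593.5 CPM (1497 to 1694) in WT, and mural-like cells with 1589.5 CPM (1252 to 1990) in Irx5KO and 1329 CPM (1070 to 1632) in WT. The 6 classes compared kept 1 order in both libraries, which was VLMC-like, tanycyte-like, mural-like, endothelial-like, OPC-like and oligodendrocyte-like. For all collagen genes together, the VLMC-like level was 3.96 times (3.68 to 4.25) the tanycyte-like level in Irx5KO and 4.0 times (3.67 to 4.36) in WT. The intervals of tanycyte-like and mural-like cells overlapped in each library, and so did those of endothelial-like and OPC-like cells, so these neighbours were not separated at this depth. For all collagen genes, OPC-like cells lay above oligodendrocyte-like cells by 2.91 times (1.89 to 4.50) in Irx5KO and 6.10 times (4.18 to 9.10) in WT. COP-like cells, with 1104 CPM in Irx5KO and 1095 CPM in WT, stood above both.

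**Figure D1:**
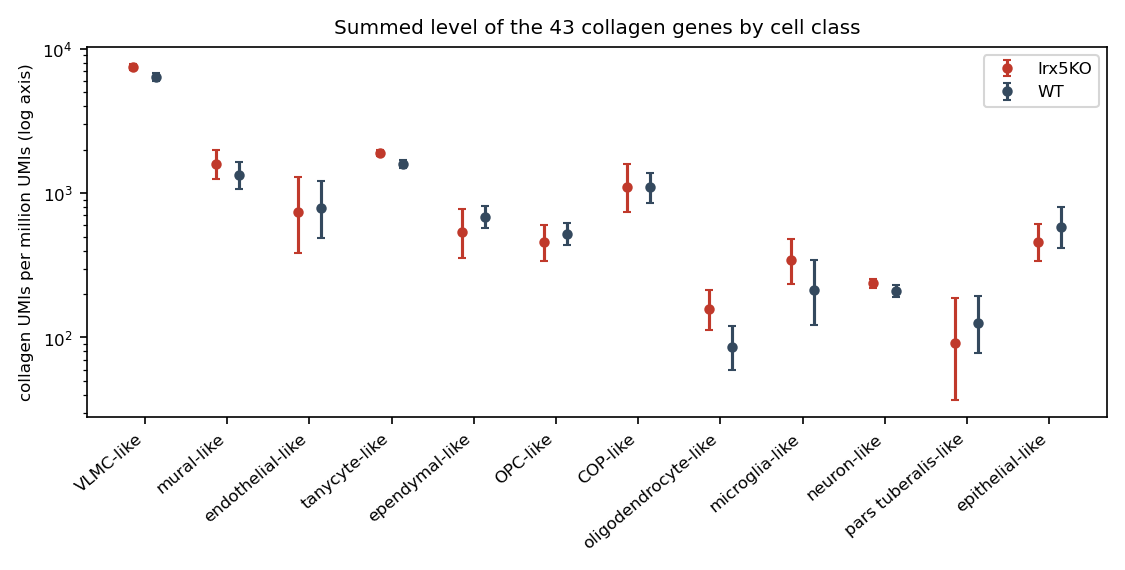
Summed level of the 43 collagen genes (CPM, log axis) in 12 cell classes, with Irx5KO left of WT; points are sums over cells and bars are exact Poisson 95% intervals. VLMC-like cells stand at 7463.5 and 6375 CPM in Irx5KO and WT, above all other classes, and pars tuberalis-like cells are at 91.7 and 127 CPM.

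Because tanycyte-like cells were many, they gave as much collagen RNA to the libraries as the VLMC-like cells did: 39.6% of collagen UMIs in Irx5KO and 33.2% in WT, beside 34.3% and 36.2% from VLMC-like cells. Neuron-like cells (895 in Irx5KO and 622 in WT) had only 237 and 210 CPM, a level in which free RNA and low expression cannot be told apart. A collagen UMI was found in 99.3% of VLMC-like cells in Irx5KO and 100% in WT, at medians of 1084 and 1181.5 UMIs per cell. The same share was 43% and 35.4% in neuron-like cells, which were deeper (medians of 2423 and 2136.5 UMIs). At 1000 UMIs per cell it was 100% in VLMC-like cells of both libraries and 21.8% and 16% in neuron-like cells of Irx5KO and WT. Within the VLMC-like class, cells differed widely. In Irx5KO the lowest cell had 0, the median cell 6654 and the highest 21814 collagen CPM, and in WT these were 860, 5377 and 30658. One cell could hold up to 13 different collagen genes in Irx5KO and up to 15 in WT.

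The classes differed in which collagens they held. Of the 26 named genes, 23 had their highest level in the same class in both libraries. For 14 of them it was the VLMC-like class: Col1a1, Col1a2, Col3a1, Col5a2, Col5a3, Col4a5, Col4a6, Col6a1, Col6a2, Col6a3, Col8a1, Col9a2, Col13a1 and Col15a1. Col23a1 and Col25a1 were highest in tanycyte-like cells, Col9a3 and Col11a2 in COP-like, Col11a1 in OPC-like, Col4a2 in mural-like, Col8a2 in ependymal-like, Col18a1 in epithelial-like and Col27a1 in microglia-like cells. Col4a1, Col4a4 and Col16a1 had unlike highest classes in the libraries, but in each library the interval over the next class held 1, so these ranks were not separated. For Col4a1 the highest class was VLMC-like in Irx5KO, at 1.19 times (0.766 to 1.91) the mural-like level. In WT it was endothelial-like, at 1.15 times (0.467 to 2.45) the VLMC-like level. These rankings pool each class. A tanycyte-like cluster led by Scn7a, described below, held Col4a4 at 63.2 CPM in Irx5KO and 85.4 CPM in WT. The highest class of Col4a4 stood at 37.8 and 58.4 CPM. Col27a1 was at 100 and 121 CPM in that cluster, beside 193 and 107 CPM in microglia-like cells. Of the 23, only 11 had an interval above 1 over the next class in both libraries: Col1a1, Col1a2, Col3a1, Col4a5, Col4a6, Col6a1, Col6a2, Col9a3, Col15a1, Col23a1 and Col25a1. Of those not separated, Col11a1 was 1.38 times (0.547 to 2.93) the neuron-like level in Irx5KO and 1.33 times (0.742 to 2.26) in WT. The plot of members by class shows these blocks.

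**Figure D2:**
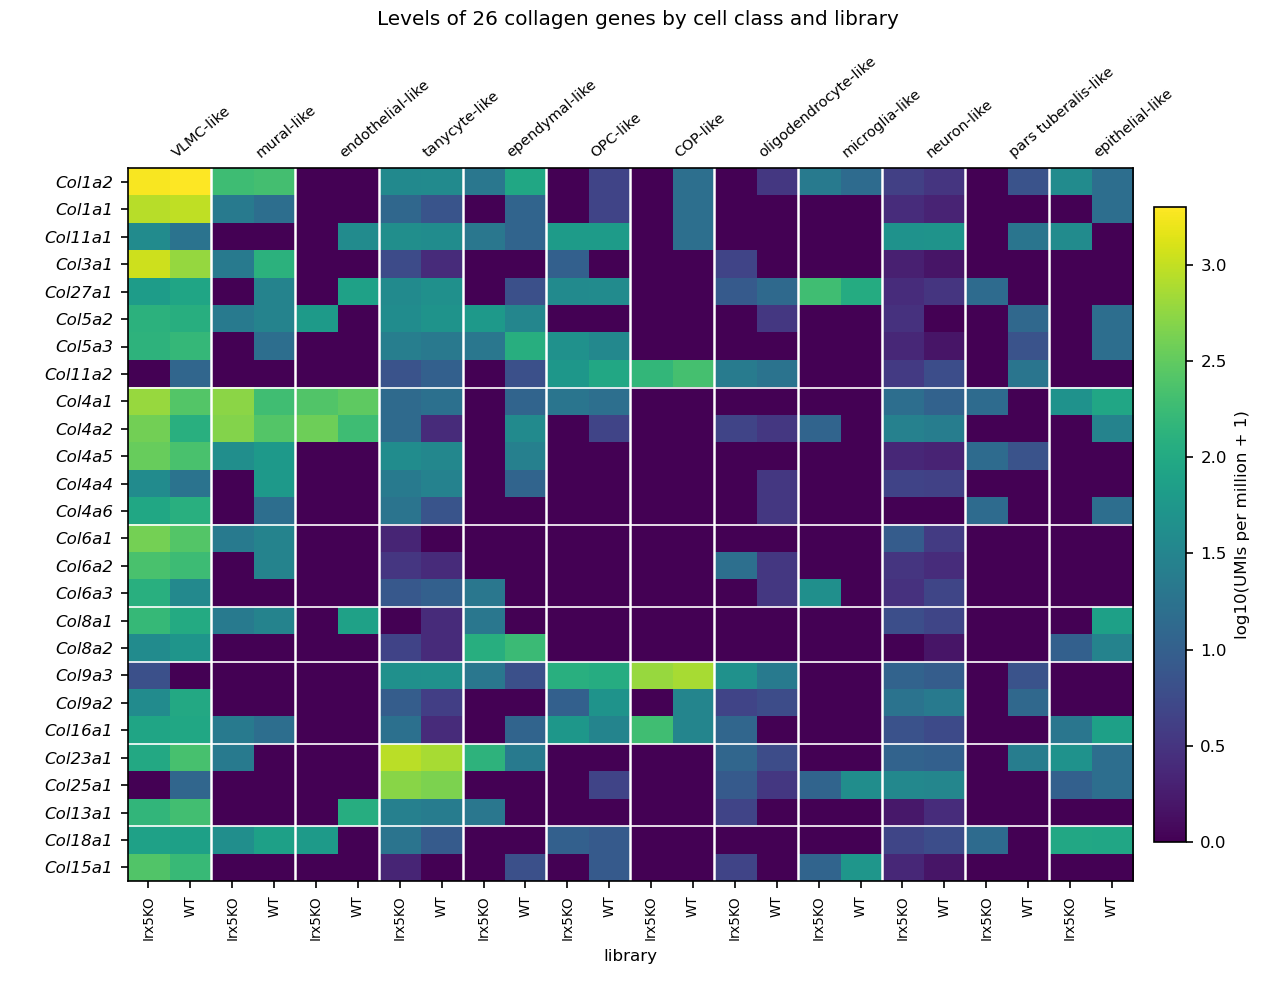
Level of the 26 collagen genes with at least 50 UMIs (rows, in blocks by structural family) in 12 cell classes (columns), as log10 of CPM plus 1, with Irx5KO left of WT in each class. VLMC-like cells stand highest for most fibrillar genes and for all 3 type VI genes shown, type IV genes are highest in VLMC-like, mural-like or endothelial-like cells, Col23a1 and Col25a1 stand out in tanycyte-like cells, and Col9a3 and Col11a2 in COP-like cells.

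The make-up of collagen differed between classes in the same way in both libraries. In VLMC-like cells, fibrillar genes made 56.7% of collagen UMIs in Irx5KO (54.0 to 59.3) and 62.8% in WT (59.9 to 65.7), and type IV genes made 20.1% and 12.1%. In mural-like cells, type IV genes led with 65.8% in Irx5KO and 46.2% in WT. In tanycyte-like cells, transmembrane collagens made 76.1% of collagen UMIs in Irx5KO and 75% in WT.

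Fibrillar collagen in VLMC-like cells was led by Col1a2 and Col1a1, the chains of type I collagen, the main fibre of fibrous tissue. Col1a2 (chr6:4504814-4541544) had 339 UMIs (1831 CPM) in Irx5KO and 347 UMIs (1986 CPM) in WT, a ratio of 0.922 (0.791 to 1.07), and was found in 75.4% and 86.2% of VLMC-like cells. Col1a1 (chr11:94936224-94953042) had 163 UMIs (880 CPM) in Irx5KO and 166 UMIs (950 CPM) in WT, a ratio of 0.927 (0.742 to 1.16). Both ratios lay near 1 over the whole class, and their values in parts of the class are given below. There were 0.481 Col1a1 UMIs per Col1a2 UMI in Irx5KO and 0.478 in WT. Outside VLMC-like cells, the Col1a1 to Col1a2 ratio was 0.286 in Irx5KO and 0.185 in WT.

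Col3a1, whose chain forms the type III fibres of distensible tissues such as vessel walls, differed between the libraries. It had 207 UMIs (1118 CPM) in Irx5KO and 103 UMIs (589 CPM) in WT, 1.90 times as high (1.49 to 2.43). At 1000 UMIs per cell, 55.8% of VLMC-like cells in Irx5KO and 27.3% in WT held a Col3a1 UMI. The corresponding shares of Col1a2, at 72.1% and 81.8%, ran the other way. Col5a2 had 24 and 20 UMIs in Irx5KO and WT, and Col5a3, with 25 and 27, had a ratio of 0.874 (0.486 to 1.56). These type V chains copolymerise with type I in fibres.

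Basement membrane collagen in VLMC-like cells was higher in the Irx5KO library. The 6 type IV genes summed to 278 UMIs (1501 CPM) in Irx5KO and 135 UMIs (773 CPM) in WT, a ratio of 1.94 (1.58 to 2.40). Col4a1 and Col4a2 encode the chains found in nearly all basement membranes. Col4a1 had 115 UMIs (621 CPM) in Irx5KO and 46 UMIs (263 CPM) in WT, 2.36 times as high (1.66 to 3.40). Col4a2 had 72 UMIs (389 CPM) in Irx5KO and 21 UMIs (120 CPM) in WT, 3.24 times as high (1.97 to 5.54). Both chains of the gene pair were thus higher in the Irx5KO library. A Col4a1 UMI was found in 37.3% of VLMC-like cells in Irx5KO and 23.8% in WT, against 4.58% and 2.57% of the deeper neuron-like cells. Col4a5, a chain of more restricted basement membranes, had 63 and 39 UMIs in Irx5KO and WT, a ratio of 1.52 (1.01 to 2.33). Its partner Col4a6 had 17 and 21, a ratio of 0.764 (0.378 to 1.52).

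Of 12 collagen genes with at least 50 UMIs in VLMC-like cells, 5 were at least 1.5-fold higher in Irx5KO (Col3a1, Col4a1, Col4a2, Col4a5 and Col6a1) and 1 was at least 1.5-fold lower (Col23a1). Among all 1361 genes measured so in this class, 27% lay at least 1.5-fold apart, 12.6% higher and 14.5% lower. The median log2 ratio was 0.45 over the 12 collagen genes and -0.04 over all genes measured. Col6a1, a chain of the type VI filaments, had 74 UMIs in Irx5KO and 45 in WT, a ratio of 1.55 (1.06 to 2.30). Col6a2, a chain of the same filaments, had 42 and 32, a ratio of 1.24 (0.763 to 2.03), and Col6a3, with 22 and 6, had a ratio of 3.46 (1.36 to 10.4). All type VI ratios were above 1, with intervals of unequal width.

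The remaining VLMC-like members split in both directions. Col15a1, a multiplexin of basement membrane zones, had 46 UMIs in Irx5KO and 29 in WT, a ratio of 1.497 (0.921 to 2.47) that lay just under the 1.5-fold threshold. It was 0.863 (0.438 to 1.64) in the first of the sub-clusters described next and 0.923 (0.394 to 2.06) in cells with no mural or endothelial marker UMI. Col8a1, a chain of short-chain networks, had 30 and 18, a ratio of 1.57 (0.849 to 2.996). Col13a1, a transmembrane collagen, had 27 and 35, a ratio of 0.728 (0.424 to 1.24). Col23a1, another transmembrane collagen, had 18 UMIs (97.2 CPM) in Irx5KO and 38 (217 CPM) in WT, 2.24 times lower in Irx5KO (ratio 0.447, 0.240 to 0.803). Both transmembrane genes thus had more UMIs in WT.

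**Figure D3:**
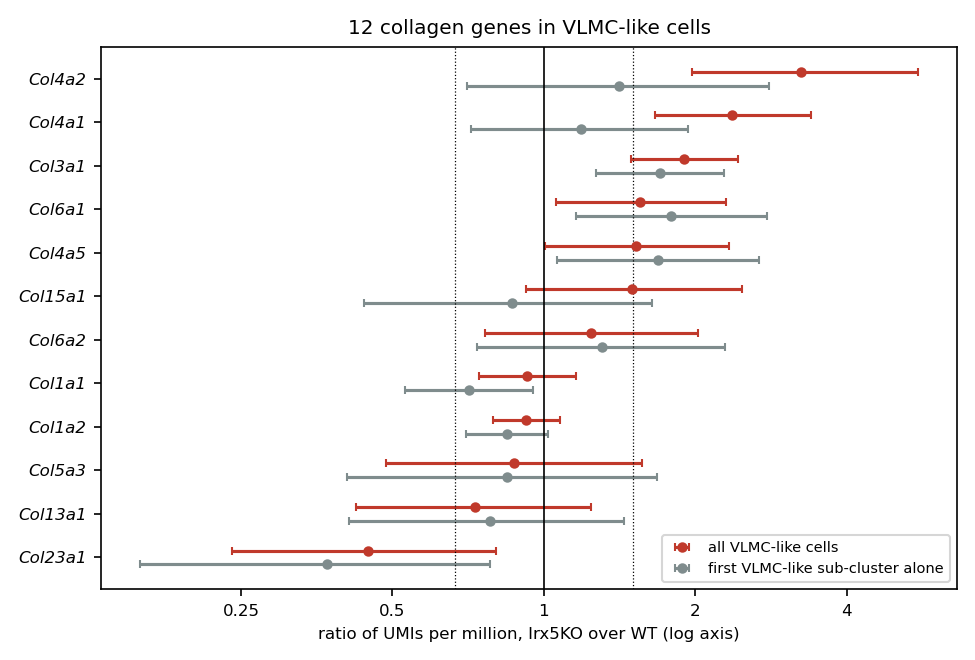
Ratio of CPM, Irx5KO over WT (log axis), of the 12 collagen genes with at least 50 UMIs in VLMC-like cells, for all VLMC-like cells and for the first of the VLMC-like sub-clusters alone; bars are exact 95% intervals of counting error and dotted lines mark 1.5-fold. Col4a2 and Col4a1 stand at 3.24 and 2.36 in all VLMC-like cells and at 1.41 and 1.18 in the sub-cluster, where Col3a1 is at 1.70 and Col23a1 at 0.371.

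The VLMC-like class held a pair of sub-clusters, also formed without collagen genes, and their shares were not alike in the libraries. The first, led by Igf2, Atf3, Gjb6 and Ptgds, held 79 Irx5KO and 123 WT cells. The second, led by the metallothioneins Mt2 and Mt1, the interferon-induced Iigp1, the chemokine Ccl2, Aspn and Spp1, held 63 Irx5KO cells (44.4% of the class) and 7 WT cells (5.38%). A cluster made mostly of 1 library may be that library and not a kind of cell. The leading genes of the second sub-cluster describe its Irx5KO cells. Its 7 WT cells, with 8231 UMIs in all, held 18 UMIs of Spp1, 1 each of Mt2 and Ccl2, and 0 of Mt1, Iigp1 and Aspn. In Irx5KO cells, Col4a1 had 1066 CPM in the second sub-cluster and 291 CPM in the first (3.66 times, 2.40 to 5.72), and Col4a2 had 686 and 169 CPM (4.05 times, 2.34 to 7.34). Col15a1 was 2.53 times as high there (1.34 to 4.97) and Col1a1 1.79 times (1.30 to 2.48). Col6a1 and Col4a5, at 0.732 (0.436 to 1.203) and 0.675 (0.380 to 1.17) times, were not separated from the first sub-cluster. The 7 WT cells of the second sub-cluster held 5 UMIs of Col4a1 and 1 of Col4a2.

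Within the first sub-cluster alone, the type IV pair no longer differed by 1.5-fold. Col4a1 had 31 UMIs (291 CPM) in Irx5KO and 41 (246 CPM) in WT, a ratio of 1.18 (0.717 to 1.93), and Col4a2 had 18 (169 CPM) and 20 (120 CPM), a ratio of 1.41 (0.702 to 2.80). Col3a1 kept 940 CPM in Irx5KO and 553 CPM in WT (1.70 times, 1.27 to 2.28), and Col6a1 and Col4a5 had ratios of 1.79 (1.16 to 2.77) and 1.69 (1.06 to 2.68). Col23a1 had 9 and 38 UMIs in Irx5KO and WT (ratio 0.371, 0.158 to 0.780) and Col1a1 70 and 154 (ratio 0.711, 0.528 to 0.950). Col1a2 had 176 and 326 (ratio 0.845, 0.699 to 1.02). The summed collagen ratio there was 1.02, against 1.17 (1.08 to 1.27) in the whole class. The first sub-cluster was itself not alike in the libraries. Its leading gene Igf2 had 147 UMIs (1382 CPM) in Irx5KO and 21 (126 CPM) in WT, while Dcn stood at 24512 and 32774 CPM. Whether these ratios set like cells against like was not tested.

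The marker lists of other classes also stood at unlike levels in the libraries. In VLMC-like cells the endothelial list stood at 589 CPM in Irx5KO, with 7 of 10 markers counted, and 212 CPM in WT, with 4 of 10. Of its 109 Irx5KO UMIs 81 were Itm2a, as were 30 of 37 WT UMIs. Of the other markers, Emcn had 12 UMIs in Irx5KO and 4 in WT, Slco1a4 7 and 1, Cdh5 5 and 0, Flt1 2 and 0, Ly6c1 1 and 0, and Cldn5 1 and 2, while Pecam1, Esam and Plvap were at 0 in both libraries. The mural list stood at 389 and 258 CPM (7 of 10 markers counted in Irx5KO and 8 of 10 in WT, with Higd1b and Myh11 at 0 in both), and 34 of 72 Irx5KO UMIs and 25 of 45 WT UMIs were Pdgfrb. The neuron list stood at 1091 CPM in Irx5KO and 664 CPM in WT, with Tubb3, Slc32a1 and Elavl4 at 0 in both. Leaving out every VLMC-like cell with a UMI of the mural or endothelial lists left 60 Irx5KO and 83 WT cells, in which Col4a1 had 32 UMIs in Irx5KO and 21 in WT (ratio 2.30, 1.29 to 4.20), Col4a2 24 and 12 (3.02, 1.45 to 6.63) and Col3a1 75 and 60 (1.89, 1.33 to 2.70). Col6a1 had 21 and 25 there (1.27, 0.675 to 2.36) and Col23a1 10 and 20 (0.755, 0.316 to 1.69). Of the type I genes, Col1a2 had 108 and 219 in these cells (0.745, 0.586 to 0.942) and Col1a1 62 and 92 (1.02, 0.726 to 1.42). Whether UMIs of the mural and endothelial lists came from other cells or from VLMC-like cells themselves was not tested. The part of free RNA from neurons in these ratios was not tested.

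Mural-like cells, the pericytes and smooth muscle of small vessels, had their collagen UMIs chiefly from the type IV pair in Irx5KO and from type IV and fibrillar genes together in WT. The 6 type IV genes made 65.8% of them in Irx5KO and 46.2% in WT, and fibrillar genes 15.8% and 31.9%. Col4a1 had 25 UMIs (523 CPM) in Irx5KO and 13 UMIs (190 CPM) in WT, a ratio of 2.75 (1.36 to 5.86). Col4a2 had 23 (481 CPM) and 18 (263 CPM), a ratio of 1.83 (0.945 to 3.598). These were the same direction as in VLMC-like cells, at fewer UMIs. The 6 type IV genes together had a ratio of 1.70 (1.11 to 2.63). No collagen gene reached 50 UMIs in this class, in which 23% of 331 measured genes lay at least 1.5-fold apart. Col1a2 had 9 and 14 UMIs, and Col3a1 had 1 in Irx5KO and 9 in WT, of which 5 came from 1 cell. The VLMC list stood in mural-like cells at 3388 CPM in Irx5KO and 2965 CPM in WT, and the neuron list at 1213 and 497 CPM; their part in these UMIs was not tested. There was 0.920 Col4a2 UMI per Col4a1 UMI in mural-like cells of Irx5KO and 1.38 in WT, against 0.626 and 0.457 in VLMC-like cells. In neuron-like cells these ratios were 1.84 and 2.44.

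Endothelial-like cells gave 12 collagen UMIs in Irx5KO and 21 in WT, or 745 CPM (385 to 1302) and 792 CPM (490 to 1211). Col4a1 had 4 UMIs in Irx5KO and 8 in WT, and Col4a2 had 6 and 5. Their levels, 248 and 302 CPM for Col4a1 and 373 and 189 CPM for Col4a2, could not be told from those of mural-like cells at this depth. Both type I genes were at 0 in endothelial-like cells of both libraries. The WT cells of this class also held 18373 CPM of the erythrocyte list (5 of 5 markers counted), 1924 CPM of the microglia list and 1170 CPM of the VLMC list, each at 62.1 CPM, or 1 UMI, in Irx5KO, and their part in these levels was not tested. No collagen gene had enough UMIs to be measured here. Of the 70 genes that did, 45.7% lay at least 1.5-fold apart.

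Tanycyte-like cells held a different set, led by a pair of transmembrane collagens. Col23a1 (chr11:51289920-51583918) had 760 UMIs (897 CPM) in Irx5KO and 468 UMIs (730 CPM) in WT, a ratio of 1.23 (1.09 to 1.38). Col25a1 (chr3:130131501-130599877), a collagen that is known from amyloid plaques and from motor neuron development, had 434 UMIs (512 CPM) in Irx5KO and 284 UMIs (443 CPM) in WT, a ratio of 1.16 (0.994 to 1.35). Both lay under the 1.5-fold threshold. The tanycyte marker list itself had a ratio of 1.38 (1.30 to 1.48) in these cells, and its part in the collagen ratios was not tested. A Col23a1 UMI was found in 62.3% of tanycyte-like cells in Irx5KO and 57.9% in WT, against 3.13% and 2.25% of neuron-like cells. Col25a1 was found in fewer cells, 27.5% and 30.2%, against 8.60% and 7.23% of neuron-like cells. Of the 122 Irx5KO cells with a Col25a1 UMI 105 also held Col23a1, as did 84 of 97 WT cells. The next members, Col9a3, Col5a2, Col11a1, Col27a1, Col1a2 and Col4a5, had 30 to 38 UMIs in Irx5KO and 21 to 31 in WT. None of the 8 collagen genes with at least 50 UMIs lay 1.5-fold apart between the libraries in this class, against 18.7% of 5875 genes measured.

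The tanycyte-like cells fell into 2 clusters with unlike collagen, again formed without these genes. The first, led by Scn7a, Fndc3c1, Ctgf and Adm, held 105 Irx5KO and 74 WT cells and summed to 3680 collagen CPM in Irx5KO and 3045 in WT. The other, led by Pltp, Ramp1 and Calml4, held 338 and 247 cells and summed to 1052 CPM in Irx5KO and 940.5 CPM in WT. In the Scn7a-led cluster Col25a1 had 384 UMIs (1428 CPM) in Irx5KO and 227 UMIs (1141 CPM) in WT. In the other it had 50 (86.5 CPM) and 57 (129 CPM), so the Scn7a-led cluster was 16.5 times (12.3 to 22.6) as high in Irx5KO and 8.85 times (6.59 to 12.1) in WT. Col23a1 differed less between the clusters, by 2.36 times (2.04 to 2.73) in Irx5KO and 2.46 times (2.05 to 2.97) in WT, and remained at 626 and 502 CPM in the other cluster. Col27a1, a fibrillar collagen known from cartilage, was 14.5 times (5.06 to 57.1) as high in the Scn7a-led cluster in Irx5KO and 13.3 times (4.58 to 52.9) in WT. Col4a4 had 17 UMIs there in each library and 1 in the other cluster in each library. Col13a1 had 20 and 12 UMIs in the Scn7a-led cluster of Irx5KO and WT and 2 and 3 in the other. Col9a3 ran the other way, with 8 and 2 UMIs in the Scn7a-led cluster and 30 and 27 in the other. The Scn7a-led cells were deeper, at medians of 2169 UMIs in Irx5KO and 2536 in WT, against 1466 and 1608 in the other cluster. The tanycyte-like class also held 1440 CPM of the astrocyte list in Irx5KO and 1018 CPM in WT and 719 and 1180 CPM of the ependymal list (all 8 markers of each list counted in both libraries), and no cluster was named astrocyte-like. The part of astrocytes and ependymal cells in these levels was not tested.

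**Figure D4:**
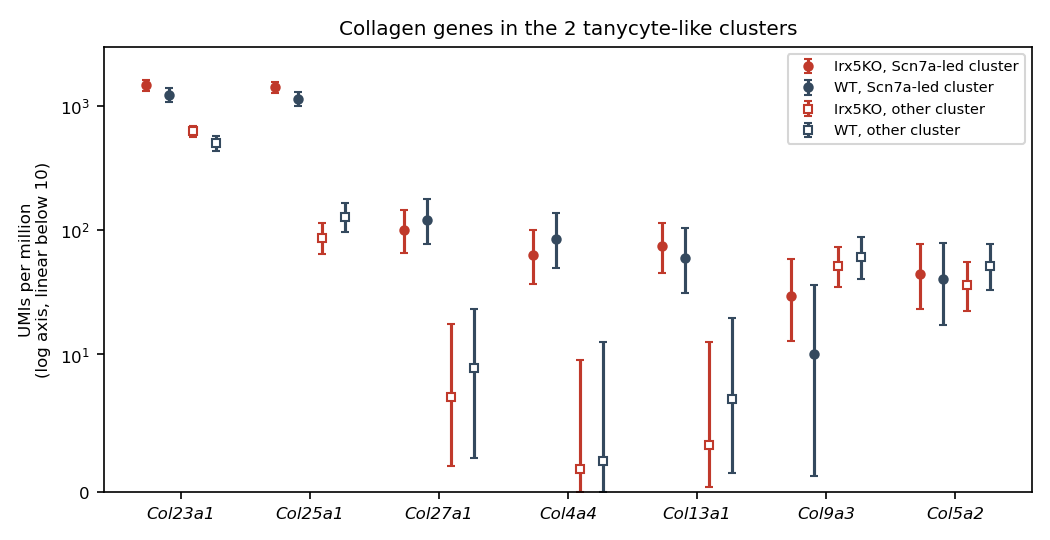
CPM (log axis, linear below 10) of 7 collagen genes in the tanycyte-like clusters, with filled circles for the Scn7a-led cluster and open squares for the other, and Irx5KO left of WT; bars are exact Poisson 95% intervals. Col25a1 stands at 1428 and 1141 CPM in the Scn7a-led cells of Irx5KO and WT and at 86.5 and 129 CPM in the others, while Col5a2 does not separate the clusters.

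In the oligodendrocyte lineage, collagen was led by Col9a3, and Col11a2 was among the next. They are chains of the type IX and type XI collagens best known from cartilage. In Irx5KO, Col16a1 in COP-like cells (190 CPM, from 7.81% of its 64 UMIs) and Col11a1 in OPC-like cells (64.2 CPM, 7 UMIs) stood above Col11a2. Col11a2 had 4 and 6 UMIs in these classes, so the order rests on few UMIs and was not tested. Col9a3 (chr2:180597790-180622189) had 16 UMIs (609 CPM) in the 15 COP-like cells of Irx5KO and 48 UMIs (730 CPM) in the 20 of WT, a ratio of 0.834 (0.442 to 1.49). It had 13 UMIs (119 CPM) in OPC-like cells of Irx5KO and 29 (109 CPM) in WT, and 12 (45.0 CPM) and 9 (22.1 CPM) in oligodendrocyte-like cells. The COP-like level of Col9a3 was thus 5.10 times (2.30 to 11.5) the OPC-like level in Irx5KO and 6.68 times (4.13 to 11) in WT. A Col9a3 UMI was present in 46.7% of COP-like cells in Irx5KO and 85.0% in WT, whose medians were 1461 and 3038 UMIs per cell. At 1000 UMIs per cell these shares were 41.7% and 61.1%. The COP-like cells of Irx5KO also held more of the oligodendrocyte list, 50198 CPM against 22451 CPM in WT (7 and 10 of 10 markers counted), and less of the OPC list, 3235 CPM against 4655 CPM (5 and 6 of 8), whose part in the Col9a3 values was not tested. In neuron-like cells the shares with a Col9a3 UMI were 3.24% in Irx5KO and 2.41% in WT without thinning. Col11a2 (chr17:34039437-34066685) had 4 and 14 UMIs in COP-like cells of Irx5KO and WT (152 and 213 CPM), 6 and 25 in OPC-like cells (55.1 and 94.3 CPM) and 6 and 7 in oligodendrocyte-like cells (22.5 and 17.2 CPM). Its levels followed the order of Col9a3. The COP-like level of Col11a2 was 2.76 times (0.574 to 11.7) the OPC-like level in Irx5KO, which did not separate them, and 2.26 times (1.09 to 4.52) in WT. Col11a1, another type XI chain, had 7 and 17 UMIs in OPC-like cells (64.2 and 64.1 CPM) and 0 in oligodendrocyte-like cells of both libraries. The last 1000 bases of Col9a3 overlap the antisense gene Tcfl5 by 234 bases, and Tcfl5 itself had 0 UMIs in COP-like cells of both libraries.

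**Figure D5:**
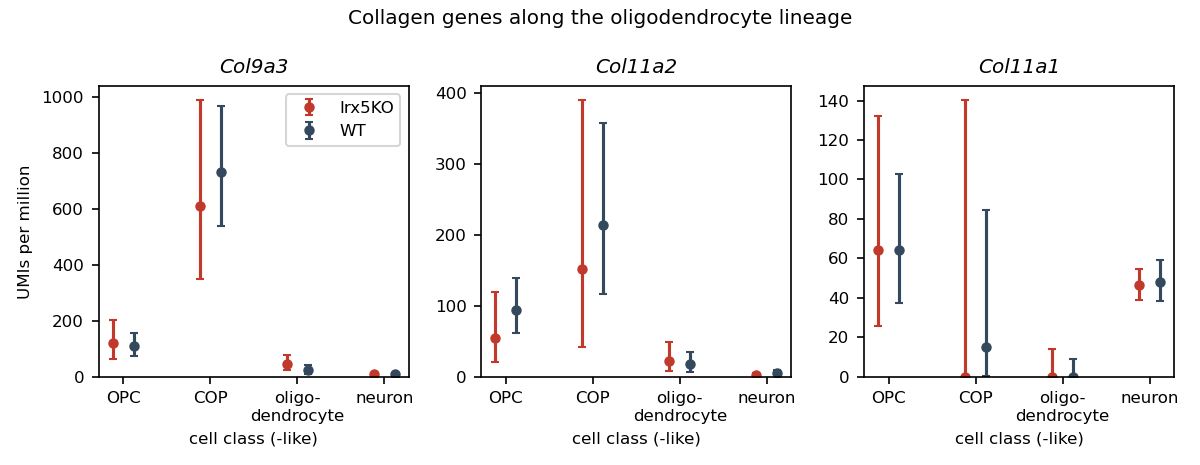
CPM of Col9a3, Col11a2 and Col11a1 in OPC-, COP-, oligodendrocyte- and neuron-like cells, with Irx5KO left of WT and exact Poisson 95% intervals. Col9a3 reaches 609 CPM in COP-like cells of Irx5KO and 730 CPM in WT and is at 119 and 109 CPM in OPC-like cells.

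Between the libraries, the lineage showed no collagen gene with enough UMIs to be called apart. Col9a3 in COP-like cells was the one member with 50 UMIs, and it lay under 1.5-fold, in a class where 46.3% of 216 measured genes lay at least 1.5-fold apart. In OPC-like cells 22.3% of 1662 genes did, and in oligodendrocyte-like cells 19.9% of 2407. The summed level was 459 CPM (341 to 605) in OPC-like cells of Irx5KO and 524 CPM (441 to 619) in WT, a ratio of 0.876 (0.621 to 1.22). In oligodendrocyte-like cells it was 157 CPM (114 to 213) in Irx5KO and 86.0 CPM (59.9 to 120) in WT, a ratio of 1.83 (1.14 to 2.96) that rests on 42 and 35 UMIs spread over 15 collagen genes in each library. Of the 12 Col9a3 UMIs in Irx5KO 5 came from 1 cell. The OPC list stood in oligodendrocyte-like cells at 1732 CPM in Irx5KO and 978 CPM in WT (6 of 8 markers counted in each), the COP list at 630 and 430 CPM (4 and 6 of 7) and the neuron list at 735 and 511 CPM (9 and 8 of 10), and their part in the collagen ratio was not tested. Both levels were below those of neuron-like cells, at 237 and 210 CPM.

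Some members were highest in smaller classes. Col8a2, a chain of the networks under the corneal endothelium, had 6 UMIs (115 CPM) in the 38 ependymal-like cells of Irx5KO and 33 UMIs (176 CPM) in the 109 of WT. Col27a1 had 18 UMIs (193 CPM) in microglia-like cells of Irx5KO and 8 (107 CPM) in WT, a ratio of 1.81 (0.749 to 4.81). Col18a1, a multiplexin whose end fragment is known as endostatin, had 10 UMIs (93.7 CPM) in epithelial-like cells of Irx5KO and 6 (87.7 CPM) in WT. Each of the 3 was highest in the same class in both libraries, and none of their intervals set the libraries apart. Col17a1, the collagen of hemidesmosomes, had 8 of its 11 Irx5KO UMIs and 3 of its 4 WT UMIs in epithelial-like cells, and Col6a5 had 5 of 11 and 13 of 13 in ependymal-like cells. These last 2 genes are below 50 UMIs and were chosen after their values were seen.

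Neuron-like cells held low levels of a few members, with Col11a1 first at 143 UMIs (46.4 CPM) in Irx5KO and 87 UMIs (48.1 CPM) in WT. Col25a1 followed with 105 (34.1 CPM) and 57 (31.5 CPM), Col4a2 with 83 (26.9 CPM) and 44 (24.3 CPM), Col9a2 with 53 and 40, and Col4a1 with 45 and 18. None of these 5 lay 1.5-fold apart, against 19% of 10907 genes measured in neuron-like cells. Their ratios ran between 0.777 for Col9a2 and 1.47 (0.832 to 2.69) for Col4a1. Col25a1 outnumbered Col23a1 in neuron-like cells (3.28 UMIs per Col23a1 UMI in Irx5KO and 3.35 in WT), while in tanycyte-like cells it was the less counted of the pair (0.571 and 0.607).

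Col24a1 (chr3:145292472-145552011), a fibrillar collagen known from developing bone, was singled out after its values were seen. It had 30 UMIs in 16 of 895 neuron-like cells of Irx5KO and 0 in 622 cells of WT. That is at least 5.86-fold higher in Irx5KO, set against a floor of 3 counts over the WT class, and the exact interval of the ratio, which also takes in counting error in Irx5KO, began at 4.48. Of the 30 UMIs 22 came from 9 cells of a cluster led by Tac2 and Kiss1, which held 42 Irx5KO and 17 WT cells, and 9 of them from 1 cell. Against a floor of 3 counts in the WT cells of that cluster it was at least 2.84-fold higher, and the exact interval began at 2.13.

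Genes that act on collagen were taken as 6 lists. In VLMC-like cells, the chaperone and secretion list had 2 of 4 measured members at least 1.5-fold higher in Irx5KO and 0 lower, beside 12.6% higher and 14.5% lower among all genes measured in this class. They were Sparc, a collagen-binding glycoprotein (617 UMIs in Irx5KO and 374 in WT, ratio 1.56, 1.37 to 1.77), and Creb3l2, a transcription factor of the secretory pathway (49 and 18, ratio 2.57, 1.47 to 4.69). Serpinh1, the collagen chaperone HSP47, had 184 and 167 UMIs, a ratio of 1.04 (0.839 to 1.29). Of 3 measured processing and crosslinking genes, Lox, the lysyl oxidase, was higher (40 and 10 UMIs, ratio 3.77, 1.86 to 8.46). Pcolce and Loxl1 had ratios of 1.05 and 1.34. Of 5 measured degradation genes and inhibitors, Timp3, an inhibitor bound to matrix (835 and 423 UMIs, ratio 1.86, 1.66 to 2.10), and Mmp14, a membrane protease that cleaves fibrillar collagen (61 and 30, ratio 1.92, 1.22 to 3.08), were higher, while Timp2 and Mmp2 stood at 0.924 and 0.944. Of 3 hydroxylase and glycosylation genes, 4 basement membrane partners and 1 receptor measured, none lay 1.5-fold apart. Their leading members were Ppib (ratio 1.32), Lama2 (1.32) and Itgb1 (1.11). In the first VLMC-like sub-cluster alone, which held 55.6% of the class in Irx5KO and 94.6% in WT, Sparc was at 1.30 (1.11 to 1.53) and Timp3 at 1.39 (1.2 to 1.61), both under 1.5-fold. There Creb3l2 had 19 UMIs in Irx5KO and 18 in WT, a ratio of 1.65 (0.821 to 3.34), Lox had 21 and 10, a ratio of 3.29 (1.48 to 7.82), and Mmp14 had 39 and 29, a ratio of 2.10 (1.27 to 3.53). In cells with no mural or endothelial marker UMI, Sparc was at 1.297 (1.05 to 1.59), and Lox, with 17 and 4 UMIs, at 6.42 (2.09 to 26.2). Timp3 was at 1.91 (1.60 to 2.27) there. Mmp14, with 24 and 20 UMIs, was at 1.81 (0.960 to 3.46), and Creb3l2, with 12 and 11, at 1.65 (0.666 to 4.12).

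In tanycyte-like cells the same lists gave other genes. Serpinh1 had 116 UMIs (137 CPM) in Irx5KO and 201 (313 CPM) in WT, a ratio of 0.437 (0.345 to 0.552), and Timp3 had 374 and 427, a ratio of 0.663 (0.576 to 0.764). Fkbp10, a prolyl isomerase of the endoplasmic reticulum, had 51 UMIs in Irx5KO and 13 in WT, a ratio of 2.97 (1.59 to 5.95), and P3h3, a prolyl hydroxylase, had 77 and 38, a ratio of 1.53 (1.03 to 2.33). Of the 9 hydroxylase and glycosylation genes measured 1 was higher and 0 lower, of 5 chaperone genes 1 was higher and 1 lower, and of 3 degradation genes 0 were higher and 1 lower, beside 10.6% higher and 8.17% lower among all genes measured in this class. None of 3 receptors or 2 basement membrane partners measured lay 1.5-fold apart, and no processing gene was measured. Timp3 thus lay on opposite sides of 1 in VLMC-like and tanycyte-like cells, a difference that was not tested.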

How the data were processed

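Drop-seq libraries of 1 Irx5KO and 1 WT pool were analysed. Per the submitters' processing notes, bcl2fastq, Picard, STAR 2.6.0b, Seurat 3 and the build mm10 were used; the annotation and any use of strand are not named in those notes. WT was deposited by the authors as UMI counts (2800 barcodes), and Irx5KO (2350 barcodes) and a merged table as natural log values, which the values show to be natural logs of 1 plus UMIs scaled so that each barcode sums to 10000. The design had assumed counts for both, and whole counts were recovered: 100% of Irx5KO values were whole multiples of their barcode's step within 1e-06, and 0 of 4275938 WT UMIs differed between the merged and the WT table.

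Barcodes below 500 genes or above 10% mitochondrial UMIs were dropped (the deposited Irx5KO barcodes reach 9.93%). The Scrublet method at an expected 5% called 24 of 1972 Irx5KO and 9 of 1843 WT cells as doublets (0.488% in WT), and these were removed; whether the calls found most doublets was not tested. Cells were clustered on 2000 variable genes without collagen genes (30 principal components, 15 neighbours, Leiden resolution 1) and named by marker lists with a scoring rule set after the clusters were seen, so classes may differ from the authors'. UMIs were summed per class and library as CPM. Sums have exact Poisson, ratios exact conditional binomial and shares Clopper-Pearson 95% intervals, which cover counting error only, and a gene at 0 was set against 3 counts. Ratios are called at 1.5-fold with at least 50 UMIs and 10 cells per library, and at fewer UMIs they are given with an interval and no call. Shares at equal depth use cells thinned to 1000 UMIs, with shallower cells left out (404 in Irx5KO and 381 in WT). The computation was tested on simulated data.

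Genes with at least 50 UMIs were named. From each pathway list came up to 3 genes with most UMIs in VLMC-like cells and up to 3 that were 1.5-fold apart in VLMC-like or tanycyte-like cells with an interval off 1. The members and lists were chosen with earlier results of these data known. Software was scanpy 1.11.5 with igraph 0.11.9 and anndata 0.12.19 in Python 3.11.15, with scipy 1.17.1, numpy 2.4.6, pandas 2.3.3 and, for plots, matplotlib 3.10.9.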

Additional observations from a re-analysis of the deposited data

How the results depend on the processing

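Of 26 gene ratios, 20 kept their call in all planned settings and 0 reversed. Col4a5 in VLMC-like cells ran between 1.11 and 1.74 and Col6a1 between 1.496 and 1.75; Col13a1, Col15a1, Col4a1 in neuron-like cells and Col9a3 in COP-like cells crossed 1.5-fold in some settings. The order of the 6 classes did not change. With 20 UMIs as the minimum, genes apart numbered 10 in VLMC-like cells against 6, 2 in mural-like, and 1 each in tanycyte-like, OPC-like and oligodendrocyte-like cells against 0. The collagen genes measured and the share of all genes apart at this lower minimum are not given. These counts thus have no background and do not show more collagen genes apart than other genes. After seeing the data, VLMC-like cells were compared within the first sub-cluster (summed ratio 1.02, 3 genes apart) and without cells holding a mural or endothelial marker UMI (summed ratio 1.08, 2 genes apart). The minimum UMIs for a call was kept in these sets, so genes could drop out for lack of UMIs. Col4a2 without marker-holding cells (ratio 3.02, 24 UMIs in Irx5KO and 12 in WT) dropped out in this way. Col23a1 in the sub-cluster (0.371, 9 and 38) did too. Col4a1 (1.18) and Col4a2 (1.41) in the sub-cluster, and Col4a5 (1.45), Col6a1 (1.27) and Col23a1 (0.755) in the other set, lay less than 1.5-fold apart. The share of all genes apart in these sets is not given. Other scalings moved log2 ratios by -0.23 and -0.25 in endothelial-like and by -0.11 and -0.13 in OPC-like cells, and by less than 0.1 in the other classes compared. The cause was not tested. No paired analysis was possible because each genotype has 1 library. Depth limits the endothelial-like, COP-like, oligodendrocyte-like, OPC-like and mural-like values, which rest on 12 to 76 collagen UMIs in Irx5KO and 21 to 139 in WT.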
